A study of Drosophila melanogaster with 15 samples.

Results

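The vacuolar proton pump (V-ATPase) genes are described here across normoxia and hypoxia in control and foxo mutant flies. Every gene whose symbol in the deposited abundance table starts with Vha was taken, which gave 33 of the 17031 gene names in the table, carried by 73 transcripts. Abundance was given in TPM, a share of the transcripts in a library that is corrected for transcript length, so levels can be compared between genes. Transcript values were summed per gene. A mean of 10 TPM or more over all 15 libraries divided the family into 18 well-expressed members and 15 low-level members. Vha100-5 lay just inside that limit at 13.2 TPM, and Vha68-1 lay just outside it at 8.11 TPM.

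The V-ATPase is a rotary enzyme that uses ATP to move protons across membranes. Its cytosolic V1 sector (subunits A to H) binds and hydrolyses ATP, and its membrane sector V0 (subunits a, c, c'', d and e) carries the protons, with accessory proteins such as Ac45 attached to the membrane part. It acidifies lysosomes, endosomes and synaptic vesicles, and in insects it also sits at the apical plasma membrane of Malpighian tubules, where it energises fluid secretion, and of the acid-secreting copper cells of the midgut. Several subunits have more than 1 gene in the fly, and many of the extra copies are known for expression in the testis.

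Whole-body mRNA was sequenced from mated adult females of about 7 days, pooled 5 to a library. The 4 groups were w1118 in normoxia (w1118N, n = 3), w1118 in hypoxia (w1118H, n = 4), foxo mutant in normoxia (FoxoN, n = 4) and foxo mutant in hypoxia (FoxoH, n = 4). Hypoxia was 16 h in a flow of 1% oxygen with nitrogen, and normoxia was ambient air. The mutants carried foxo Δ94, a null allele kept as a balanced stock, in every tissue, so an effect of the allele cannot be told apart from other differences between the stocks. The foxo gene itself was at 20.7 ± 0.586 TPM (SD, n = 3) in w1118N and 29.8 ± 9.05 TPM (n = 4) in w1118H, and did not exceed 0.257 TPM in any mutant library. Since TPM keep no read totals, the depth behind each value is unknown, and precision was read from the spread between libraries, each of which was a separate pool of flies.

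Most members shared a library-to-library pattern that bears on all the comparisons. Of the 18 well-expressed members, 14 were lowest in library 1 among the w1118H libraries, 15 were lowest in library 2 among the FoxoH libraries, and 15 were highest in FoxoH library 4. The median member stood at 0.719 of the mean of the other w1118H libraries in w1118H1, at 0.678 in FoxoH2 and at 1.39 in FoxoH4. Median-of-ratios size factors, which place the typical gene at the same level in every library, followed the same order: they were 0.874 in w1118H1 against 1.09 to 1.30 in the other w1118H libraries, and 0.719, 0.923, 0.949 and 1.24 in FoxoH2, FoxoH3, FoxoH1 and FoxoH4. Over the 153 pairs among the 18 members, deviations of log2 TPM from the group means had a median correlation of 0.71 across the 15 libraries, and of 0.06 once the TPM were divided by these factors, a description only, since all pairs share the same libraries. The tests are therefore given for TPM as deposited, with the values after division by the size factors ("scaled TPM") beside them. The median SE of well-expressed members for hypoxia in w1118 was 0.19 in TPM and 0.09 in scaled TPM. Scaling nevertheless widened the spread of some members. The w1118H SD was 84.0 and 173 for Vha13, 39.4 and 82.8 for Vha36-1, and 8.77 and 27.7 for VhaM8.9. The FoxoH SD of Vha13 went the other way, at 138 and 33.3. Hypoxia in w1118 moved the median of all tested genes by 0.22 on the log2 scale in TPM and by 0.01 in scaled TPM, and changes of members are also given relative to that median.

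The abundance of the family was carried by 1 gene per subunit for most subunits. The summed level of the 33 genes was 3851 ± 84.7 TPM in w1118N, 3706 ± 378 TPM in w1118H, 4331 ± 192 TPM in FoxoN and 3515 ± 627 TPM in FoxoH, or 0.386%, 0.371%, 0.434% and 0.352% of all TPM. The 15 low-level members together gave 14.6 to 33.2 TPM in a library. Vha16-1 held at least 99.9% of the mRNA of the proteolipid subunit c in every library, VhaPPA1-1 all of subunit c'', VhaAC39-1 99.9% to 100% of subunit d, Vha14-1 at least 99.97% of subunit F, Vha36-1 98.3% to 99.2% of subunit D and Vha68-2 95.5% to 97.8% of the catalytic subunit A. Only subunits a and e were divided among several genes at 10 TPM or more, subunit a among Vha100-2, Vha100-1 and Vha100-5 and subunit e between VhaM9.7-b, at 80.9% to 87.9%, and VhaM9.7-c, at no more than 17.5%.

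Of the 15 low-level members, Vha68-1, VhaM9.7-a, Vha100-4 and Vha36-3 averaged 8.11, 5.41, 4.69 and 3.85 TPM. The other 11 did not exceed 0.169 TPM in any library and did not enter the tests, which required a group mean of at least 1 TPM. Vha100-3, Vha16-2, Vha16-4 and VhaPPA1-2 were listed at 0 in all 15 libraries, and Vha14-2, Vha16-3 and Vha36-2 in 12 of them. VhaM9.7-d was listed at 0 in 13 libraries, Vha16-5 in 4, VhaAC39-2 in 1 and Vha68-3 in 0. Some of the low-level copies lie beside an expressed one: in the BDGP6 annotation (dm6), Vha68-3 lies 178 bases beyond the end of Vha68-2 on 2L, and VhaPPA1-2 lies 2052 bases from VhaPPA1-1 on 3R. Vha68-3 was at 0.0241 to 0.168 TPM where Vha68-2 was at 140 to 326 TPM. A list of 13 testis and sperm genes summed to 4.89 to 8.69 TPM as group means in these female libraries, and 1 of the 13 passed the filter. That gene, bol, named after its values were seen, carried nearly all of the sum at 2.14 to 10.9 TPM, while the other 12 genes did not exceed 0.359 TPM in any library.

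**Figure D1:**
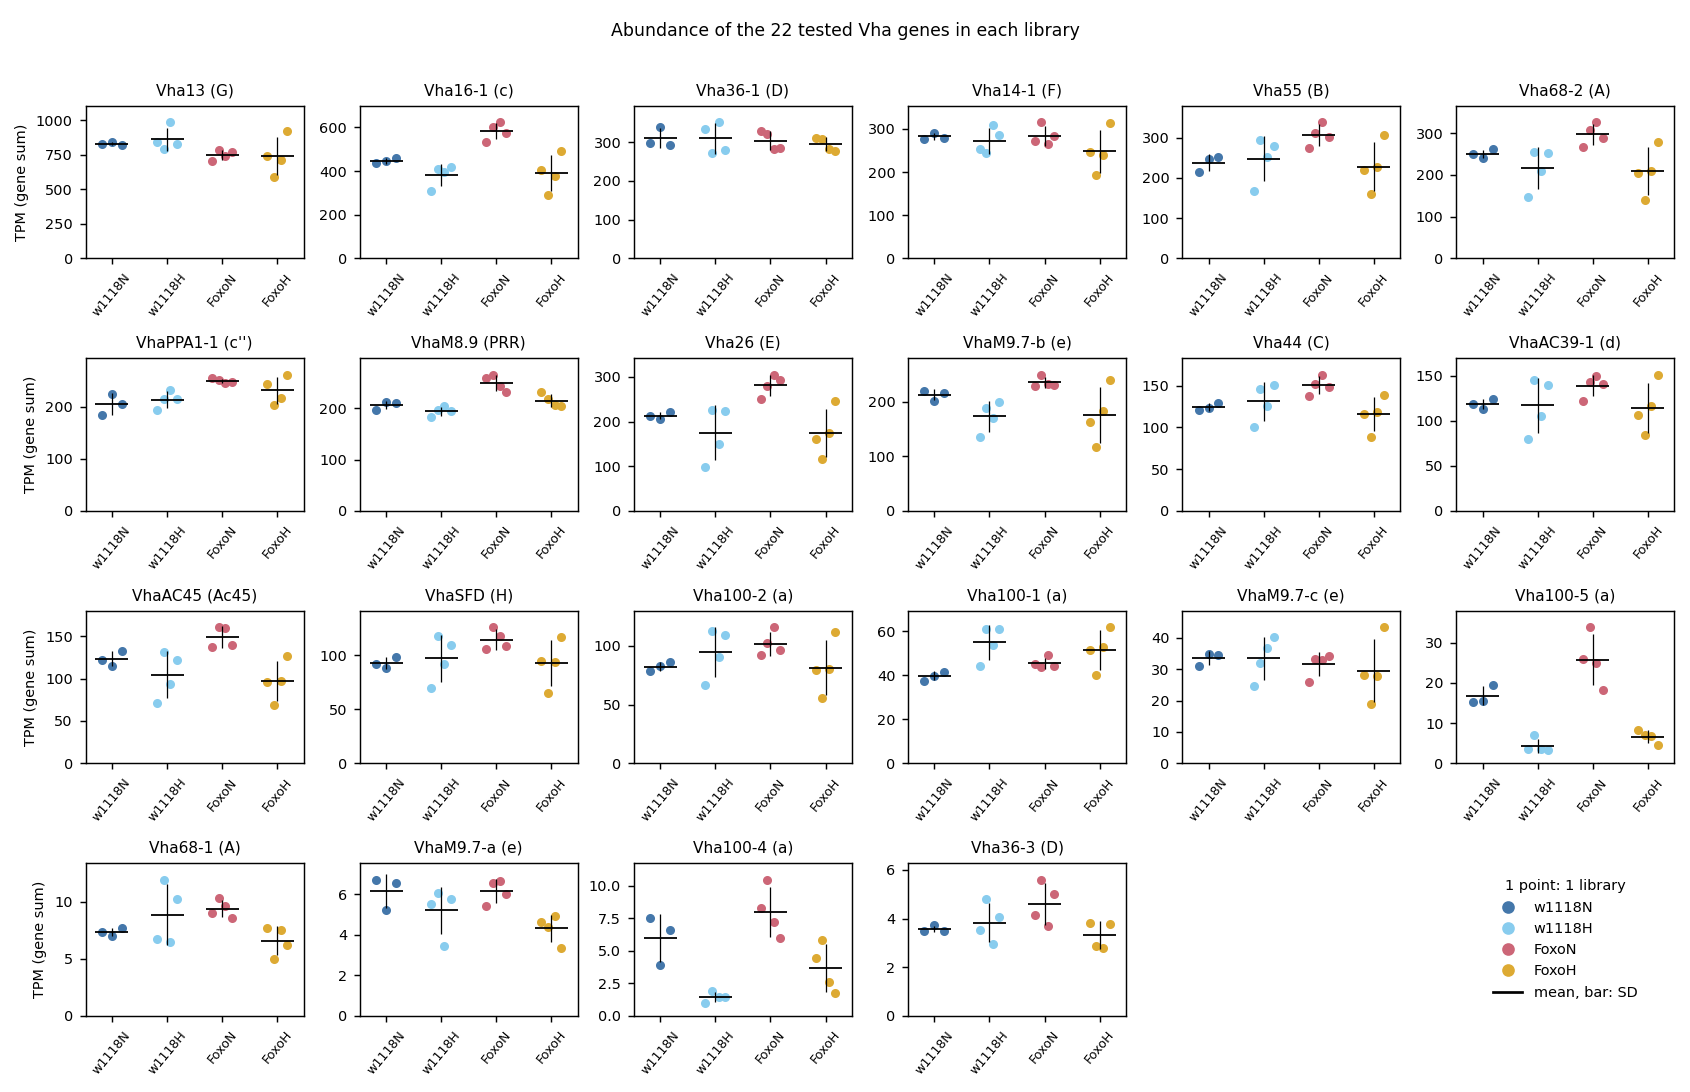
TPM (gene sum, linear axis from 0) of the 22 tested Vha genes in each of the 15 libraries, ordered by mean level, with the subunit in parentheses; points are libraries, horizontal lines group means and vertical bars SD. Vha100-5 and Vha100-4 were lower in every hypoxia library than in every normoxia library of the same genotype, while the w1118N and w1118H points of Vha13, Vha36-1 and Vha55 overlap.

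The first comparison asked how hypoxia changed the pump genes in control flies. Among 22 tested members, 1 rose and 2 fell at an adjusted p under 0.05 (limma on log2(TPM + 1), Benjamini-Hochberg over 10288 genes), against 16.2% of all tested genes called higher and 9.84% called lower. The median difference of the 18 well-expressed members was -0.04 on the log2 scale against 0.22 for all genes, or -0.26 relative to the median gene. In scaled TPM, 0 members rose and 8 fell, against a background of 13.1% higher and 16.9% lower. Both members that fell in TPM, Vha100-5 and Vha100-4, were among the 8. Values of 1 member were higher and of 4 lower in every w1118H than in every w1118N library, against 25.2% and 12.5% of all genes. In scaled TPM these were 1 and 11, against 17% and 20.6%.

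The second comparison asked the same in foxo mutants, where 0 rose and 5 fell, each by more than 1.5-fold, against 9.34% and 13.5% of all genes, and the median member differed by -0.34, or -0.30 relative to the median gene. In scaled TPM, 1 rose and 11 fell in the mutants, against 16.7% and 16.2%, and all 5 members called in TPM were called again. No member was higher and 7 were lower in every FoxoH than in every FoxoN library, against 10.3% and 16.1% of all genes, and in scaled TPM 1 and 12, against 18.5% and 16.7%.

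The changes of more than 2-fold were in subunit a, the V0 subunit that lines the proton path and directs the pump to its membrane. Vha100-5 (FBgn0032373, 2L:11738948-11744524, plus strand) was at 15.4, 15.5 and 19.6 TPM in the w1118N libraries and at 3.46, 6.93, 3.53 and 3.19 TPM in the w1118H libraries. In the mutants it was at 26.0, 33.9, 25.1 and 18.3 TPM in normoxia and at 8.23, 7.09, 6.69 and 4.43 TPM in hypoxia. Hypoxia and normoxia did not overlap in either genotype. It fell by 1.80 on the log2(TPM + 1) scale in w1118 (SE 0.26, limma adjusted p = 1.07e-04) and by 1.81 in the mutants (SE 0.24, adjusted p = 4.18e-05), and the calls held in each of the 15 alternatives in w1118 and 16 in the mutants.

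Vha100-4 (FBgn0038613, 3R:18386841-18389805, minus strand), known in the fly for expression in the acid-secreting region of the midgut, was at 7.51, 3.91 and 6.57 TPM in w1118N and at 0.994, 1.87, 1.43 and 1.47 TPM in w1118H. In the mutants it was at 8.31, 10.5, 7.19 and 5.96 TPM in normoxia and 4.41, 5.85, 2.64 and 1.74 TPM in hypoxia. Again no hypoxia library reached a normoxia library of its genotype in TPM, although in scaled TPM the mutant groups overlapped. It fell by 1.49 in w1118 (SE 0.29, adjusted p = 0.00152) and by 1.01 in the mutants (SE 0.27, adjusted p = 0.0128). The copper cell region list (lab, Ptx1 and dve), whose defining gene lab was at 0.0651 to 0.605 TPM, had summed levels of 3.01 to 4.24 TPM in w1118N, 1.42 to 5.34 TPM in w1118H, 4.90 to 7.73 TPM in FoxoN and 3.81 to 5.67 TPM in FoxoH. Neither of its 2 tested genes, Ptx1 and dve, was called with hypoxia in either genotype. The gene lab was below the filter and was not tested. It was at 0.353, 0.369 and 0.291 TPM in w1118N and 0.0651, 0.290, 0.107 and 0.137 TPM in w1118H, without overlap. In the mutants it was at 0.301, 0.605, 0.263 and 0.341 TPM in normoxia and 0.232, 0.190, 0.247 and 0.363 TPM in hypoxia, with overlap. Whether fewer cells of a type or less mRNA per cell underlies such a value cannot be told apart in whole bodies.

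Vha100-1 (FBgn0028671, 3R:29131193-29137980, plus strand), known in the fly as the subunit a of neurons and synaptic vesicles, was the single member to rise. It was at 37.5, 39.8 and 41.7 TPM in w1118N and 44.2, 61.0, 53.9 and 60.9 TPM in w1118H, with no overlap, a difference of 0.45 (SE 0.16, adjusted p = 0.0435) or 0.23 relative to the median gene. The call was lost in scaled TPM (0.22, adjusted p = 0.0558) and when any one of the 3 w1118N libraries or w1118H libraries 2, 3 or 4 was left out (adjusted p = 0.0741 to 0.148), but not without w1118H1. In the mutants it was at 45.0, 43.5, 49.0 and 44.4 TPM in normoxia and 51.3, 40.0, 52.8 and 61.8 TPM in hypoxia (0.16, adjusted p = 0.482), and in scaled TPM it rose by 0.24 there (adjusted p = 0.0259) with every hypoxia library above every normoxia library. A list of 6 neuronal genes had 0 called with hypoxia in w1118, against 16.2% of all genes higher and 9.84% lower. In the mutants 1 was lower, against 9.34% higher and 13.5% lower. The medians of the list were 0.30 and -0.40, beside 0.22 and -0.04 for all genes, and in scaled TPM 0.14 and -0.36. Without w1118H1 and FoxoH2, an alternative chosen after seeing the data, 2 of the list rose in w1118 and 0 were called in the mutants. The list medians were then 0.52 and -0.39, beside 0.32 and 0.07 for all genes. The share of all genes called is not given for that fit, so the count is not read as particular to the list. Vha100-1 overlaps Alg13 on the opposite strand, as Vha100-2 does Vti1b, Vha100-4 does cona and Vha100-5 does asRNA:CR44144, and whether strand was used in quantification is not given in the sources used here.

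Vha100-2 (FBgn0028670, 3R:18390323-18399169, minus strand), the most abundant gene of subunit a, lies 517 bases from Vha100-4 on the same strand. It was at 78.4, 82.6 and 86.0 TPM in w1118N, 66.5, 113, 90.6 and 110 TPM in w1118H, 92.1, 103, 116 and 96.2 TPM in FoxoN, and 79.1, 55.2, 80.0 and 112 TPM in FoxoH. The hypoxia and normoxia libraries overlapped in both genotypes and the gene was not called (adjusted p = 0.560 and 0.220), though in scaled TPM it was lower in the mutants by 0.27 (adjusted p = 0.0208). The neighbours Vha100-2 and Vha100-4 thus had hypoxia differences of 0.17 and -1.49 in w1118.

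As shares of subunit a mRNA, which do not depend on the scaling of a library, Vha100-1 went from 27.4% ± 0.570 to 35.7% ± 2.11 with hypoxia in w1118 and from 25.2% ± 1.79 to 36.1% ± 1.25 in the mutants. Vha100-5 went from 11.6% ± 1.00 to 2.74% ± 0.850 and from 14.2% ± 2.92 to 4.87% ± 1.77. Vha100-4 went from 4.15% ± 1.33 to 0.920% ± 0.0852 in w1118 and from 4.40% ± 0.933 to 2.83% ± 1.92 in the mutants. Vha100-2 kept between 51.1% and 62.6% in all libraries. The mean share of Vha100-1 was thus larger and that of Vha100-5 smaller after hypoxia in both genotypes. Shares of 1 total are bound together, so a smaller share of Vha100-5 and Vha100-4 by itself enlarges the share of Vha100-1. In the mutants the TPM of Vha100-1 was not called (0.16, limma adjusted p = 0.482).

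**Figure D2:**
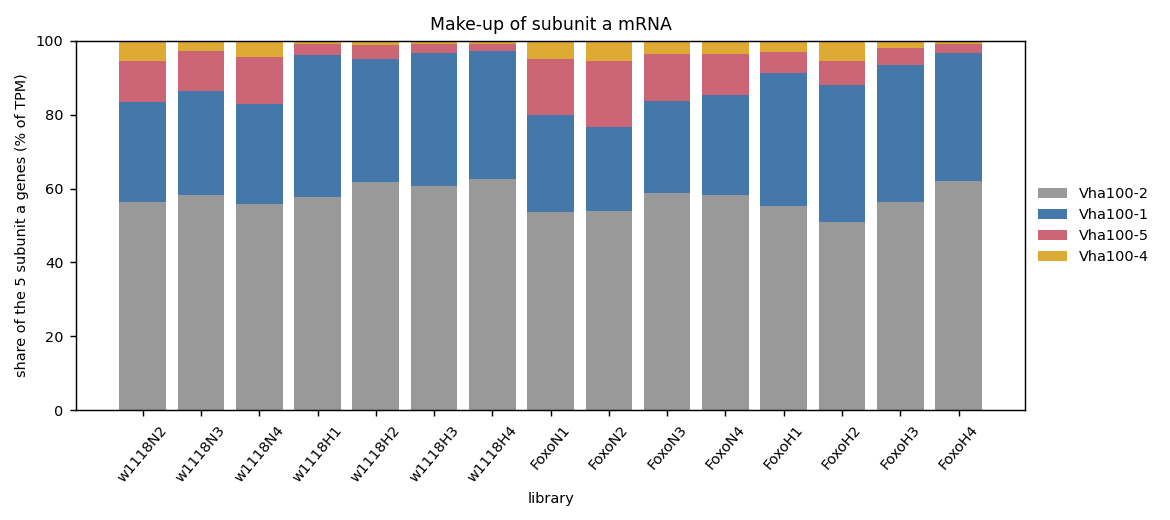
Share of each gene in the summed TPM of the 5 subunit a genes (percent, stacked from 0 to 100) for each of the 15 libraries; Vha100-3 was at 0 throughout. The blue Vha100-1 band is wider and the red Vha100-5 band narrower in the hypoxia libraries, with mean Vha100-5 shares of 11.6% and 2.74% in w1118N and w1118H and 14.2% and 4.87% in FoxoN and FoxoH.

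In the membrane ring, Vha16-1 encodes the main proteolipid, subunit c, whose ring turns as protons pass. It was at 435, 446 and 459 TPM in w1118N, 310, 410, 396 and 419 TPM in w1118H, 535, 602, 623 and 576 TPM in FoxoN, and 406, 289, 378 and 490 TPM in FoxoH. The groups did not overlap between hypoxia and normoxia in either genotype. It fell in the mutants by 0.60 (SE 0.14, adjusted p = 0.00552) and was not called in w1118 in TPM (-0.23, adjusted p = 0.281). In scaled TPM it fell in both, by 0.46 in w1118 (adjusted p = 9.06e-04) and 0.52 in the mutants (adjusted p = 1.88e-04), from 461 to 477 down to 323 to 362 in w1118 and from 578 to 600 down to 394 to 428 in the mutants.

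VhaPPA1-1, the second type of proteolipid (subunit c''), was at 184, 225 and 205 TPM in w1118N, 193, 215, 233 and 216 TPM in w1118H, 255, 252, 247 and 247 TPM in FoxoN, and 244, 204, 218 and 262 TPM in FoxoH. Its hypoxia differences were 0.06 (95% interval -0.18 to 0.31) and -0.11 (-0.34 to 0.11), neither called under either scaling. VhaAC39-1, subunit d, which joins the ring to the V1 stalk, was at 119, 113 and 124 TPM in w1118N, 79.7, 145, 106 and 139 TPM in w1118H, 122, 143, 150 and 140 TPM in FoxoN, and 106, 83.9, 116 and 151 TPM in FoxoH. The w1118H values of this gene straddled all 3 normoxia values, and it was called lower in w1118 only in scaled TPM (-0.28, adjusted p = 0.0337).

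Among the small subunit e genes, VhaM9.7-b was at 221, 202 and 217 TPM in w1118N, 135, 188, 170 and 199 TPM in w1118H, 229, 250, 233 and 232 TPM in FoxoN, and 164, 117, 183 and 241 TPM in FoxoH. Its w1118H libraries lay below the w1118N libraries without a call in TPM (-0.31, adjusted p = 0.234), and in scaled TPM it fell by 0.54 in w1118 (adjusted p = 4.85e-04) and by 0.38 in the mutants (adjusted p = 0.00342). VhaM9.7-c, at 19.0 to 43.4 TPM, and VhaM9.7-a, at 3.35 to 6.72 TPM, were not called in any comparison under either scaling.

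In the V1 sector, 1 member, Vha26, was called with hypoxia in TPM, and the catalytic Vha68-2 was called besides in scaled TPM in both genotypes. Vha68-2, subunit A, was at 249, 241 and 261 TPM in w1118N, 148, 254, 209 and 252 TPM in w1118H, 267, 306, 326 and 289 TPM in FoxoN, and 205, 140, 209 and 279 TPM in FoxoH. Its difference in the mutants was -0.55 (adjusted p = 0.0521), and in scaled TPM it fell by 0.48 in w1118 (adjusted p = 0.00134) and by 0.46 in the mutants (adjusted p = 8.98e-04). Its paralog Vha68-1, at 4.98 to 12.0 TPM, had differences of 0.20 in w1118 and -0.46 in the mutants, neither called.

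Vha26, subunit E of the outer stalk, was at 212, 205 and 221 TPM in w1118N, 99.1, 226, 150 and 223 TPM in w1118H, 250, 279, 305 and 293 TPM in FoxoN, and 160, 115, 174 and 245 TPM in FoxoH. It fell in the mutants by 0.74 (SE 0.24, adjusted p = 0.0369), with no overlap, a call that was lost when any 1 FoxoN library or FoxoH library 1, 2 or 3 was left out (adjusted p = 0.0531 to 0.0988) and without the filter on low values (adjusted p = 0.0599), and kept in 8 of 16 alternatives. In w1118 the libraries w1118H2 and w1118H4 lay above all normoxia values. In scaled TPM it fell in w1118 by 0.59 (adjusted p = 0.00568) and in the mutants by 0.66 (adjusted p = 0.00159).

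Vha13, subunit G of the same stalk, was the most abundant member at 826, 844 and 824 TPM in w1118N, 842, 796, 987 and 833 TPM in w1118H, 706, 789, 742 and 773 TPM in FoxoN, and 739, 593, 710 and 925 TPM in FoxoH. Its hypoxia differences were 0.05 (95% interval -0.22 to 0.32) in w1118 and -0.04 (-0.29 to 0.22) in the mutants, and it was not called under either scaling. Vha26 and Vha13, which form the same stalk, thus differed in their hypoxia values, although this difference was not tested.

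The central rotor genes Vha36-1 (subunit D) and Vha14-1 (subunit F) were not called with hypoxia in either genotype or scaling. Vha36-1 was at 298, 339 and 294 TPM in w1118N, 334, 273, 351 and 278 TPM in w1118H, 328, 321, 282 and 283 TPM in FoxoN, and 311, 308, 282 and 278 TPM in FoxoH. Its order over the libraries ran against that of the other members: w1118H1 and w1118H3 were its higher w1118H libraries and FoxoH4 its lowest FoxoH library, and its deviations from group means had a median correlation of -0.53 with those of the other 17 well-expressed members. Vha14-1 was at 276, 291 and 279 TPM in w1118N, 253, 244, 308 and 285 TPM in w1118H, 273, 315, 264 and 282 TPM in FoxoN, and 246, 193, 239 and 313 TPM in FoxoH. The low-level rotor paralog Vha36-3 was at 2.78 to 5.60 TPM and was not called.

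The remaining V1 genes encode the ATP-binding subunit B (Vha55), the subunit C that links V1 to V0 (Vha44) and the regulatory subunit H (VhaSFD). Vha55 was at 215, 248 and 252 TPM in w1118N, 169, 293, 252 and 279 TPM in w1118H, 274, 312, 338 and 302 TPM in FoxoN, and 219, 160, 226 and 307 TPM in FoxoH. Vha44 was at 121, 123 and 130 TPM in w1118N, 100, 146, 126 and 151 TPM in w1118H, 137, 152, 163 and 149 TPM in FoxoN, and 116, 88.6, 119 and 138 TPM in FoxoH. Both overlapped between hypoxia and normoxia in each genotype and neither was called in TPM. VhaSFD was at 92.1, 88.1 and 98.5 TPM in w1118N, 69.5, 118, 91.5 and 109 TPM in w1118H, 106, 126, 118 and 108 TPM in FoxoN, and 94.2, 65.0, 93.9 and 117 TPM in FoxoH. In scaled TPM the 3 genes fell in the mutants, by 0.38, 0.31 and 0.25 (adjusted p = 0.00423, 0.00395 and 0.0276), and were not called in w1118, where Vha44 lay at 115 to 116 in all 4 hypoxia libraries and at 127 to 135 in normoxia.

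The accessory proteins sit beside the membrane sector. VhaAC45, the Ac45 subunit, was at 122, 115 and 132 TPM in w1118N, 70.9, 131, 93.2 and 122 TPM in w1118H, 137, 161, 160 and 140 TPM in FoxoN, and 96.5, 68.8, 96.8 and 126 TPM in FoxoH. It fell in the mutants by 0.64 (SE 0.19, adjusted p = 0.0246) with no overlap, a call that was lost without FoxoN library 2 or 3 or FoxoH library 1 or 2 (adjusted p = 0.0516 to 0.0683), and in scaled TPM it fell in both genotypes by 0.50 and 0.56 (adjusted p = 0.00137 and 3.25e-04). VhaM8.9, which the current annotation calls ATP6AP2 (the prorenin receptor in mammals), was at 197, 212 and 210 TPM in w1118N, 183, 196, 204 and 195 TPM in w1118H, 259, 265, 244 and 231 TPM in FoxoN, and 233, 217, 206 and 205 TPM in FoxoH, with no call for hypoxia.

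**Figure D3:**
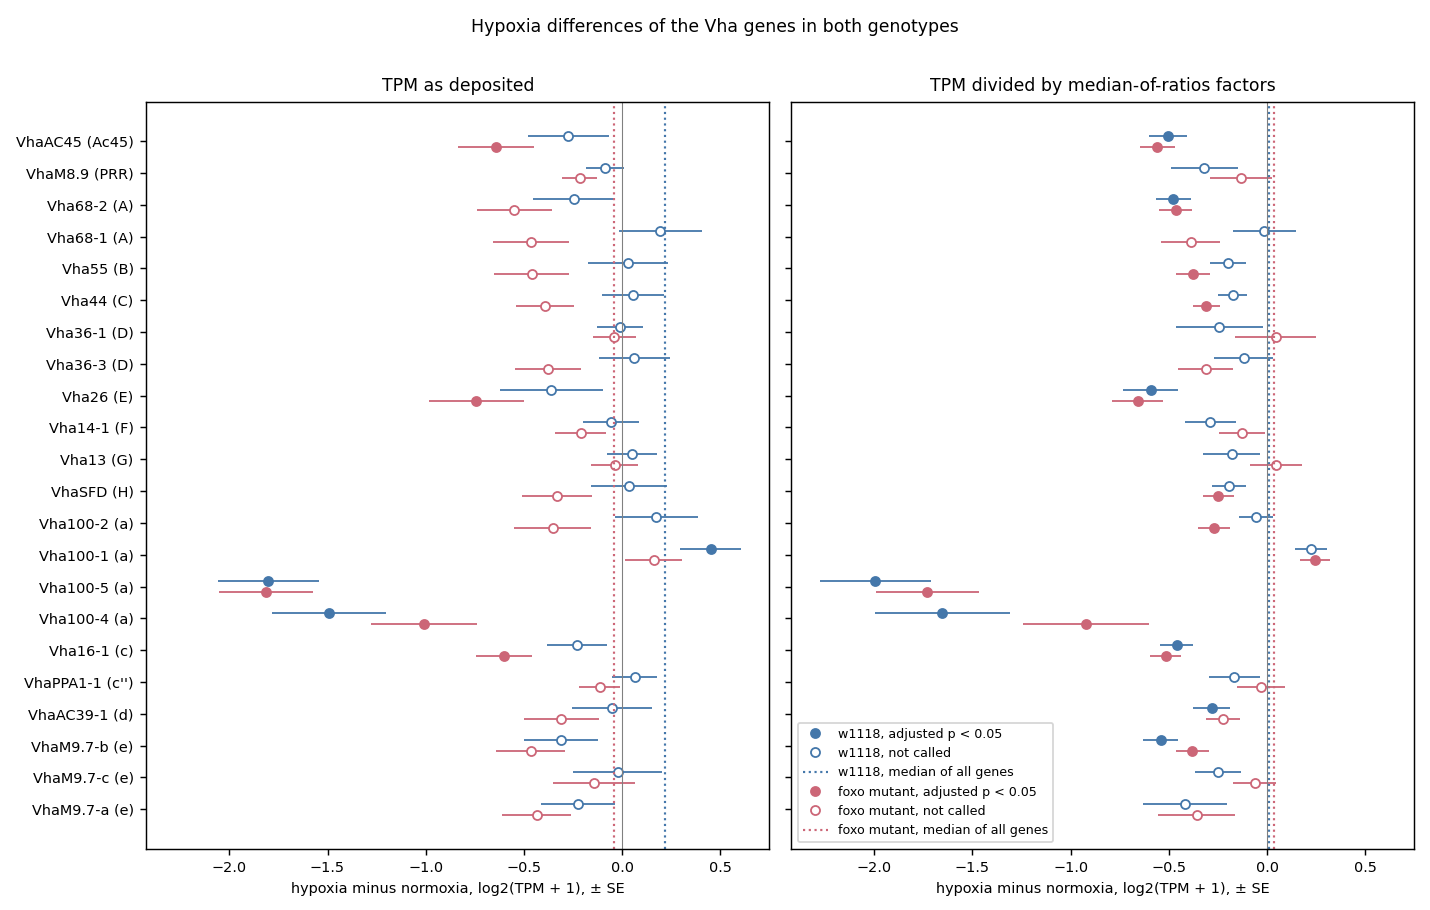
Difference between hypoxia and normoxia on the log2(TPM + 1) scale (points, with bars of 1 SE from limma) for the 22 tested members in w1118 (blue) and foxo mutants (red), for TPM as deposited (left) and scaled TPM (right); filled points had an adjusted p under 0.05 and dotted lines mark the median of all tested genes. The blue line lies at 0.22 on the left and 0.01 on the right, and the bars of most members are shorter on the right, where the median SE of the well-expressed members in w1118 was 0.09 against 0.19 on the left.

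The third comparison asked whether the response to hypoxia depended on foxo. The interaction, the hypoxia difference in mutants minus that in w1118, was called in 0 of 22 members by limma, with 1 at an unadjusted p under 0.05 (Vha68-1, -0.66, limma adjusted p = 0.333), against 1.07% of all genes called higher and 1.55% called lower. In scaled TPM it was also called in 0 members, against 1.68% and 1.07%. All 18 well-expressed members had a negative interaction in TPM, with a median of -0.27 where the median of all genes was -0.23. In scaled TPM 7 were negative and 11 positive, with a median of 0.04. The 95% interval of the interaction of Vha16-1 in TPM ran from -0.82 to 0.07 and that of Vha26 from -1.14 to 0.37, so differences of those sizes could not be told from 0.

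The mutants were also compared with w1118 in each condition. In normoxia 0 members were called by limma, with 4 at an unadjusted p under 0.05 (Vha100-5, Vha16-1, VhaM8.9 and VhaPPA1-1), against 5.52% of all genes called higher and 3.14% called lower. Values of 13 of the 22 members were nevertheless higher in every FoxoN than in every w1118N library, against 20.4% of all genes, and 1 member, Vha13, was lower in every one, against 15.5%. The median of the well-expressed members was 0.27 against 0.04 for all genes. In scaled TPM Vha16-1 (0.32, adjusted p = 0.0226) and Vha55 (0.30, adjusted p = 0.0479) were higher and 0 members lower, against a background of 6.81% and 6.32%. In scaled TPM 12 members were higher and 1 lower in every FoxoN than in every w1118N library, against 18.7% and 21.8%. Without the other groups in the fit, 6 members were called higher in TPM, against 13.5% of the 10000 genes then tested.

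In hypoxia Vha100-4 was higher in the mutants (0.86, SE 0.27, adjusted p = 0.0391), the single member called, against 7.65% of all genes called higher and 9.42% called lower. Its FoxoH libraries overlapped the w1118H libraries through FoxoH4. Only VhaM8.9 was higher, and 0 members lower, in every FoxoH than in every w1118H library, against 7.67% and 8.49% of all genes. The call was lost without any one of the w1118H libraries 1, 3 and 4 or the FoxoH libraries 1 and 2 (adjusted p = 0.0758 to 0.123), without the filter (0.0643), with a pseudocount of 5 (0.0795), with only the compared libraries (0.0923) and without w1118H1 and FoxoH2 together (adjusted p = 0.194), and was kept in 7 of 16 alternatives. In scaled TPM Vha100-4, Vha16-1 and VhaPPA1-1 were higher (1.05, 0.26 and 0.36, adjusted p = 0.0332, 0.0278 and 0.0498) and 0 members lower, against 12.2% and 6.35% of all genes, and 2 members were higher and 0 lower in every library, against 10.5% and 6.16%. These genotype comparisons share their libraries with the hypoxia comparisons.

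In normoxia the ratio of the V1 sum to the V0 sum lay lower in the mutants than in w1118, without overlap. The summed V1 level over the summed V0 level was 1.97 to 2.05 in w1118N, 2.01 to 2.35 in w1118H, 1.71 to 1.78 in FoxoN and 1.91 to 2.02 in FoxoH, a ratio that does not change with a library's scaling. All 4 FoxoN libraries lay below every other library, and hypoxia and normoxia overlapped in w1118 but not in the mutants. In hypoxia the genotypes overlapped, with FoxoH2 at 2.02 above w1118H2 at 2.01, and no test was run on this ratio. V0 summed to 1168 ± 32.6 TPM in w1118N and 1428 ± 68.6 TPM in FoxoN, and V1 to 2353 ± 47.1 and 2504 ± 113 TPM. Vha13 and Vha16-1, the largest members of the V1 and V0 sums, differed in opposite directions between w1118N and FoxoN. Vha13 was at 831 ± 10.8 and 752 ± 36.9 TPM, and Vha16-1 at 447 ± 12.1 and 584 ± 38.1 TPM. Among other well-expressed V1 members, Vha26, Vha44, Vha55, Vha68-2 and VhaSFD were higher in every FoxoN than in every w1118N library. Vha14-1 and Vha36-1 overlapped. The ratio was not computed without Vha13 and Vha16-1, so no shift of whole sectors can be read from it.

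**Figure D4:**
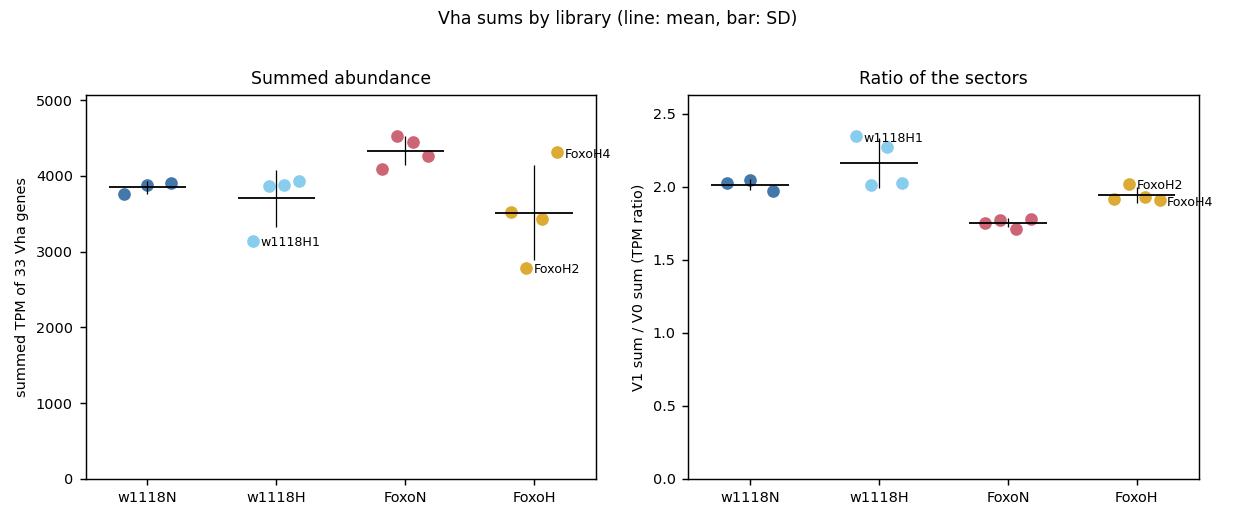
Summed TPM of the 33 Vha genes (left) and the ratio of the V1 sum to the V0 sum (right) in each library, with group means (lines) and SD (bars). The FoxoN ratios of 1.71 to 1.78 lie below all others, and w1118H1, FoxoH2 and FoxoH4 are labelled because most members were lowest or highest there.

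Single transcripts showed shifts that the gene sums did not. Of 49 tested Vha transcripts, 2 rose and 5 fell with hypoxia in w1118, against 14.8% and 8.72% of 18362 transcripts, and 0 rose and 12 fell in the mutants, against 6.54% and 10.9%. In scaled TPM 2 rose and 18 fell in w1118, against 2300 (12.6%) and 2741 of 18225 transcripts, and 1 rose and 17 fell in the mutants, against 11.9% and 12.4%. Vha55 had 3 transcripts, and its sum was not called in w1118, yet its transcript NM_001170126.1 rose by 0.78 (adjusted p = 0.0284) and its transcript NM_169475.2 fell by 1.23 (adjusted p = 0.00539). The share of NM_001170126.1 in Vha55 mRNA was 30.1% ± 6.97 in w1118N, 49.9% ± 4.02 in w1118H, 30.0% ± 3.27 in FoxoN and 37.3% ± 3.71 in FoxoH. The minor transcript NM_169475.2 was at 7.51, 8.31 and 8.76 TPM in w1118N, 1.87, 4.38, 2.17 and 3.74 TPM in w1118H, 22.6, 25.5, 24.9 and 29.7 TPM in FoxoN, and 11.1, 5.99, 12.3 and 16.5 TPM in FoxoH. Its values were lower with hypoxia in each genotype and higher in the mutants in each condition, with no overlap, and it fell by 1.17 in the mutants (adjusted p = 0.00521). The genotypes were not compared by a test at the transcript level. How many of all transcripts separate in this way is not given, so the genotype difference is description only.

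Vha100-2 and Vha44 each had a transcript whose share was lower in every hypoxia library than in every normoxia library of w1118. For Vha100-2, transcript NM_142465.2 made up 48.2% ± 3.40 in w1118N and 34.5% ± 3.65 in w1118H, and 54.2% ± 5.67 and 41.8% ± 8.16 in FoxoN and FoxoH. For Vha44, transcript NM_166163.3 made up 39.5% ± 3.23 and 28.2% ± 4.08 in w1118, and 40.4% ± 2.49 and 33.2% ± 4.05 in the mutants. Both transcripts fell in the mutants, by 0.73 (adjusted p = 0.00706) and 0.67 (adjusted p = 0.0446). In w1118 neither was called (-0.30 and -0.43, limma adjusted p = 0.249 and 0.201). How many of all transcripts have shares that separate in this way is not given, so the separation is description only. The main Vha100-1 transcript, NM_170391.3, rose in w1118 by 0.66 (adjusted p = 0.00413), from 19.5 to 20.7 TPM in normoxia to 26.8 to 37.3 TPM in hypoxia. In the mutants it was not called (0.22, limma adjusted p = 0.298). Another transcript of that gene, NM_170394.3, was lower there (-1.11, adjusted p = 0.0231) and not called in w1118 (0.22, adjusted p = 0.671). Reads shared by transcripts of 1 gene are divided by estimation in this quantification, so these splits are less certain than the sums.

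**Figure D5:**
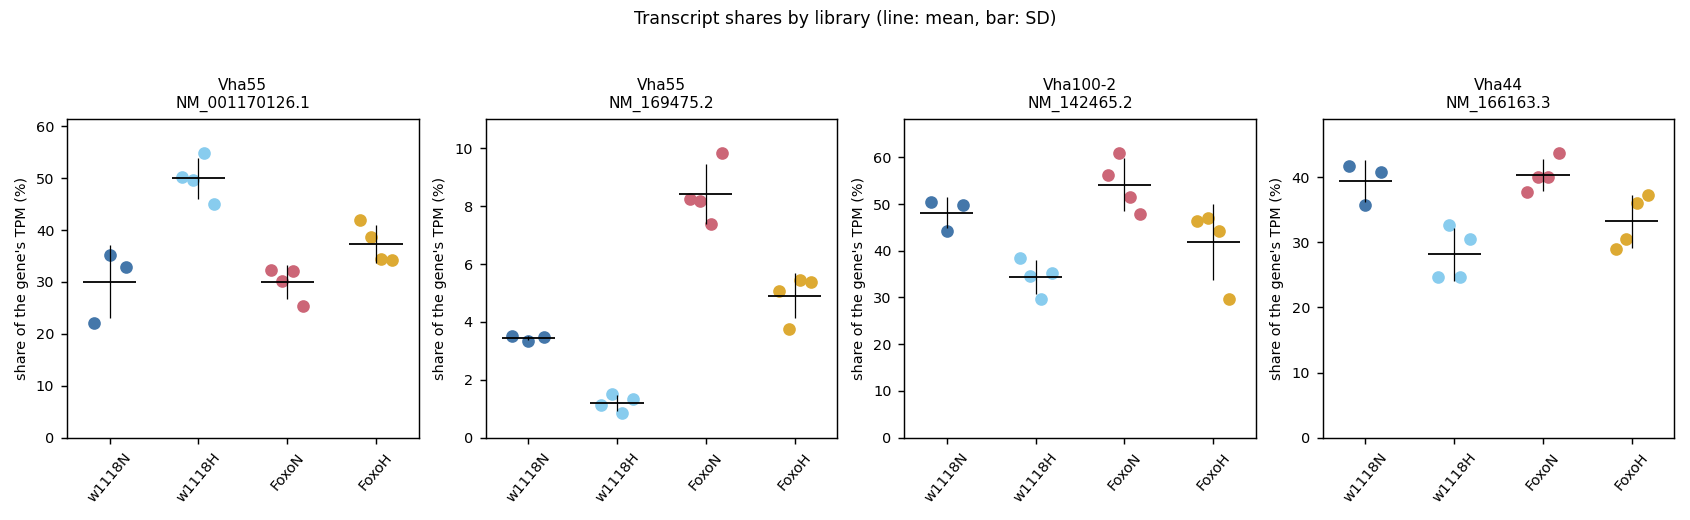
Share of 4 transcripts in the summed TPM of their gene (percent, axes from 0) in each library, with group means (lines) and SD (bars). NM_001170126.1 of Vha55 is higher and the other 3 lower as group means in hypoxia than in normoxia of both genotypes, from 30.1% to 49.9% for NM_001170126.1 in w1118.

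Other genes of the same pathway were examined as lists. Their counts are read against the shares of all genes called, 16.2% higher and 9.84% lower in w1118 and 9.34% and 13.5% in the mutants. In scaled TPM these shares were 13.1% and 16.9% in w1118, and 16.7% and 16.2% in the mutants. For the fits with the replicate block or with libraries left out, no such share is given. Of 5 genes for assembly and regulation of the pump (Rbcn-3A, Rbcn-3B, rogdi, mtd and CG5969), 0 were called with hypoxia in either genotype, and the medians were 0.22 in w1118 and -0.32 in the mutants, beside 0.22 and -0.04 for all genes. In scaled TPM 1 of the 5 rose and 0 fell in w1118, and 0 were called in the mutants. The scaled medians were -0.006 and -0.24, beside 0.01 and 0.03 for all genes. With the replicate number as a block, 2 of the 5 rose in w1118. Of 18 lysosomal genes, 5 rose and 3 fell in w1118 and 0 rose and 7 fell in the mutants, with medians of 0.14 and -0.47. In scaled TPM 0 rose and 3 fell in w1118 and 0 rose and 9 fell in the mutants. Both with the replicate block and without w1118H1 and FoxoH2, 6 rose and 3 fell in w1118, with a median of 0.25 in each. These are not separate checks. As w1118H1 has no w1118N library of its number, the blocked w1118 estimate leaves it out as well.

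The lysosomal genes with the smallest p in w1118 were LManV, a lysosomal mannosidase (-3.21, adjusted p = 7.36e-05), cln3, the fly counterpart of a Batten disease gene (-1.05, adjusted p = 0.00185), and the cysteine proteases CtsB1 (0.54, adjusted p = 0.0110) and CG12163 (0.57, adjusted p = 0.0122). In the mutants they were cln3 (-1.39, adjusted p = 7.87e-05), LManV (-2.23, adjusted p = 9.01e-04), the hexosaminidase gene Hexo2 (-0.91, adjusted p = 0.00677) and CG8596 (-0.82, adjusted p = 0.00783). Of 13 genes for transport driven by or coupled to protons, 1 rose and 0 fell in w1118, 2 and 0 with the replicate block, and 0 rose and 4 fell in the mutants. In scaled TPM 1 rose and 4 fell in w1118 and 1 rose and 5 fell in the mutants.

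Lists for tissues rich in the pump and for other cell types are read against the shares of all genes called, 16.2% higher and 9.84% lower in w1118 and 9.34% and 13.5% in the mutants, or in scaled TPM 13.1% and 16.9%, and 16.7% and 16.2%. Of 9 tested Malpighian tubule genes, 0 rose and 2 fell in w1118 and 0 rose and 4 fell in the mutants, and in scaled TPM 0 rose and 5 fell in each genotype. Their summed level was 166 to 211 TPM in w1118N, 121 to 167 TPM in w1118H, 173 to 208 TPM in FoxoN and 119 to 150 TPM in FoxoH. Of 15 eggshell genes 11 and 10 fell, with mean sums of 35213 and 7973 TPM in w1118 and 19308 and 6932 TPM in the mutants. Of 5 fat body and yolk genes 4 fell in each genotype, and of 7 female germline genes 1 rose in w1118, and 1 rose and 1 fell in the mutants. In scaled TPM 12 and 11 of the eggshell genes and 4 and 4 of the fat body and yolk genes fell, while 1 germline gene rose and 2 fell in w1118, and 2 rose and 3 fell in the mutants. Between genotypes in normoxia, 3 of the 9 Malpighian tubule genes were higher and 0 lower in the mutants, against 5.52% and 3.14% of all genes. Their median was 0.50 beside 0.04 for all genes, although the summed levels overlapped. In scaled TPM 2 were higher and 1 lower, against 6.81% and 6.32%. The part of these shifts in the members' values was not tested.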

How the data were processed

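Poly-A libraries (Ultra II Directional kit) were sequenced on an Illumina NextSeq, and the authors quantified transcripts with kallisto against RefSeq mRNA of dm6 and tested them with sleuth. No source used here gives their versions. The deposited merged table holds TPM per transcript and library. Separate deposited tables of fold changes, p-values and q-values were not used. Of 34111 transcripts, 138 without a value were dropped, and TPM were summed over 17031 gene names. Library totals were 998679.4 to 999016.0 TPM, and depth is unknown.

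Genes reaching a group mean of 1 TPM (10288, of them 22 members) were fitted with limma 3.58.1 (trend) in R 4.3.3 on log2(TPM + 1), 1 model over the 4 groups, two-sided, with Benjamini-Hochberg adjustment over all genes. Differences on this scale understate changes of low genes. The code was tested on simulated data. Alternatives were median-of-ratios scaling, other filters (none, 5 TPM) and pseudocounts (0.1, 5), fits of the compared libraries only, a replicate block and leaving out each library. Deviations from group means correlated between same-numbered w1118N and w1118H libraries at 0.142, 0.374 and 0.177, while in the mutants 1 of 4 pairs was at -0.0711. Same-numbered libraries of different genotype ran from -0.24 (w1118N3 and FoxoH3) to 0.393 (w1118H1 and FoxoN1). These values do not establish that the number pairs libraries. The main fit used no pairing, and the number entered only as the block in an alternative.

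All Vha genes are accounted for. Values in every library are given for members called in a hypoxia comparison, the interaction or, above 1.5-fold, a genotype comparison, and for the highest gene of each subunit, and list genes are named up to 4 per comparison by smallest p. The members and lists were chosen with earlier results of these data known. Positions are from the Ensembl release 115 annotation. Promoter and protein sequences were not used here.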

Additional observations from a re-analysis of the deposited data

Results flagged for a closer look

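Of 66 groups of 4 libraries examined for the tested members, 1 held a library that stood far from the others. Vha100-5 was at 6.93 TPM in w1118H library 2, where the next highest of that group was at 3.53 TPM, a gap of 0.911 of the group's range. About 1 in 20 such groups is marked by chance. Without that library Vha100-5 fell by 2.01 in w1118 on the log2(TPM + 1) scale (limma adjusted p = 3.09e-05).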

How the results depend on the processing

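Median-of-ratios scaling changed the most. Members up and down were 0 and 8 in w1118 hypoxia, 1 and 11 in mutant hypoxia, 2 and 0 for the mutants in normoxia and 3 and 0 in hypoxia, and the medians for the interaction and for the mutants in hypoxia turned positive (0.04 and 0.18). At the transcript level it gave 18 down in w1118 (2741 of all 18225 transcripts) and 1 up in the mutants (11.9%). Fitting only the libraries compared gave 0 up in w1118 hypoxia, 6 up for the mutants in normoxia (13.5% of all genes) and 0 up in hypoxia. Without a filter the mutants had 1 member up in normoxia and 0 in hypoxia, and with a pseudocount of 5 they had 0 up in hypoxia. Leaving out 1 library at a time gave 0 to 1 up and 2 down in w1118 hypoxia, 0 up and 3 to 11 down in mutant hypoxia (11 without FoxoH4, 3 without FoxoN2, FoxoN3, FoxoH1 or FoxoH2), 0 up for the mutants in normoxia, and 0 to 2 up (2 without w1118H2 or FoxoH4) and 0 to 1 down (1 without FoxoH4) in hypoxia. Leaving out w1118H1 and FoxoH2 together, an alternative chosen after seeing the data, gave 1 up for the mutants in normoxia, 0 up in hypoxia and 6 down in mutant hypoxia. The median of all tested genes moved as well. For mutant hypoxia it was -0.04 in the main fit, -0.17 without FoxoH4 and 0.07 without FoxoH2. It was -0.02 without FoxoN2 or FoxoN3, -0.03 without FoxoH1 and 0.07 without w1118H1 and FoxoH2 together. Shares of all genes called are not given for fits with libraries left out or with the replicate block, so those counts are not read as particular to the members. The cause was not tested. The calls of Vha100-5 in both genotypes, of Vha100-4 in both genotypes and of Vha16-1 in the mutants held in every alternative run, and no called value changed sign. With the replicate number as a block, w1118 kept 1 up and 2 down and the mutants had 0 up and 6 down, the added member being Vha68-2 (adjusted p = 0.0296), and the block changed no other count of members. In w1118 the blocked hypoxia estimate leaves out w1118H1, which has no w1118N library of its number. The planned motif search in promoters was not run, since it needs sequences not used here. Unknown depth limits what can be said of members below 1 TPM, and reads of near-identical paralogs and of overlapping genes may be divided wrongly between them.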
